A study of Mus musculus with 6 samples.

Results

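The 10 genes described here encode the enzymes that carry long-chain fatty acids through mitochondrial oxidation, with a switch and a regulator of that pathway. They were taken by symbol from a table of 41064 genes, and all 10 were found. Cpt1a, Cpt1b and Cpt2 encode carnitine palmitoyltransferases, Acadvl, Acadl and Acadm acyl-CoA dehydrogenases, and Hadha and Hadhb the subunits of the mitochondrial trifunctional protein. Pdk4 encodes a pyruvate dehydrogenase kinase and Ppara the nuclear receptor PPAR alpha. RNA of mouse aorta was sequenced in 6 libraries, 3 labelled wild type and 3 labelled knockout of Josd2, a deubiquitinase. Both groups had received angiotensin II, a peptide hormone that constricts vessels and is used in mice to set off remodelling of the arterial wall. Every comparison is therefore between the labelled genotypes under that treatment, and aortas that had not received it were not analysed here. The sources used here do not give strain, age, sex, dose, duration or how the knockout was made. No label ties a library to a named animal, so whether the libraries of a group come from separate animals is not given. The p-values measure only the spread between these libraries.

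Fatty acids enter the mitochondrion as carnitine esters, made at the outer membrane by CPT1 and turned back into acyl-CoA at the inner membrane by CPT2. The beta-oxidation spiral then shortens the chain in repeated rounds of dehydrogenation, hydration, a second oxidation and thiolysis, each round releasing acetyl-CoA. PDK4 phosphorylates and inhibits the pyruvate dehydrogenase complex, which limits the entry of glucose carbon when fatty acids are burned. PPAR alpha, activated by fatty acids, drives transcription of many of these genes in liver, heart and brown fat, and vascular smooth muscle and endothelium also express it.

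Deposited counts summed to between 63612353 and 75886761 per library, and they were read as about 4 counts per read pair, a tentative reading on which the numbers of read pairs below rest. Differences below are on CPM, counts per 1000000 counts of the library after TMM scaling, which assumes that most genes do not differ, and were tested with the quasi-likelihood test of edgeR, with p-values adjusted by Benjamini-Hochberg over 20132 genes. The choice of scale matters for all 10 genes. Mitochondrially encoded transcripts took 36.15% to 36.21% of the counts in wild type and 23.82% to 23.87% in the libraries labelled knockout. With plain library totals as the scale, the median gene was higher in the labelled knockouts by 0.41 on the log2 scale, against -0.00 with TMM. The deposited FPKM values, per length and per library total, carry that same shift. Josd2 transcript was present in the libraries labelled knockout, at 21.67, 19.90 and 21.38 CPM against 29.90, 30.99 and 29.34 CPM in wild type (log2 fold change -0.52, SE 0.07, edgeR adjusted p = 0.000244). With library totals the Josd2 difference was -0.11 (edgeR adjusted p = 0.231), and which part of the gene was deleted is not stated, so the level of the whole transcript does not check the label. The smooth muscle genes Myh11, Acta2 and Tagln stood at 4008, 9871 and 4288 CPM in wild type and at 4819, 8037 and 4255 CPM in the labelled knockouts, as the label of aorta requires. Libraries of a group lay very close together, with Acta2 at 9831, 9904 and 9878 CPM in wild type and 8040, 8041 and 8030 CPM in the labelled knockouts. Whether so small a spread is that of separate animals was not tested, so the p-values may not speak for differences between animals.

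On the TMM scale 1 of the 10 genes differed between the groups and 9 were not called. Pdk4 was 1.97-fold lower in the labelled knockouts, while Cpt1a, Cpt2, the 3 dehydrogenases and both trifunctional protein subunits lay between -0.19 and 0.07 on the log2 scale. Of all genes tested, 24.7% were called, 13.2% higher and 11.5% lower. The median log2 fold change of the 10 genes was -0.00, the same as that of all genes. Summed over those 7 enzymes, wild type libraries held 423, 404 and 413 CPM and labelled knockout libraries 409, 404 and 415 CPM. On library totals 7 of the 10 were called higher and 1 lower, when 50.6% of all genes were called, 46.8% higher and 3.81% lower. The median of the 10 genes on that scale was 0.41, again that of all genes. These are whole vessels, so fewer cells of a type and less RNA per cell cannot be told apart.

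**Figure D1:**
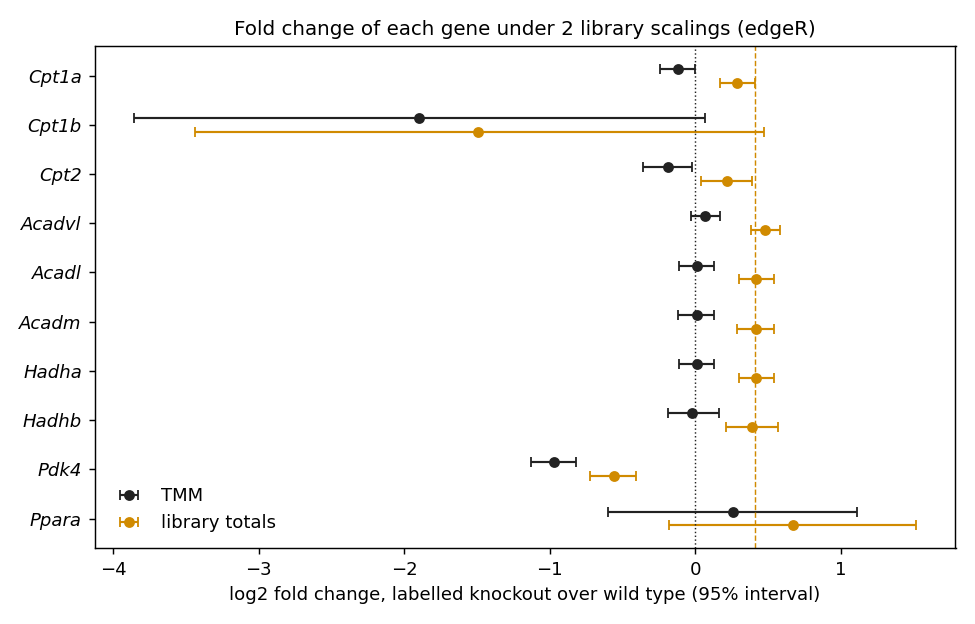
Log2 fold change of each gene, labelled knockout over wild type, with its 95% interval from edgeR, on the TMM scale (black) and on library totals (orange). The dotted line marks no change and the dashed line the median gene on library totals, 0.41. Pdk4 lies to the left of both lines on both scales, the intervals of Cpt1b and Ppara are wide, and the other genes sit near the median gene.

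Pdk4 was the gene of the set that fell. It lies on the minus strand of chromosome 6 from 5483351 to 5496309, coordinates that are the same in the deposited table and in GENCODE release M21 on GRCm38. Wild type libraries held 56.51, 56.33 and 48.45 CPM and the labelled knockouts 26.64, 27.98 and 27.43 CPM. The lowest wild type library was well above the highest labelled knockout, and the labelled knockouts lay close together (53.76 ± 4.60 against 27.35 ± 0.671, SD, n = 3). The log2 fold change was -0.97 (SE 0.07, 95% interval -1.13 to -0.82, edgeR adjusted p = 1.81e-06). On library totals it was -0.56 (edgeR adjusted p = 5.57e-05), so the direction did not depend on the scale although the size did. Counts rested on 536 to 801 read pairs per library.

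The 219 bases upstream of Pdk4 in the RefSeq promoter table (GRCm38.p6) are shown because Pdk4 is the gene with a difference. They run along the minus strand, at chr6:5496310-5496528, and hold 1 CCAAT box, read as ATTGG on the strand printed and set in capitals.
Pdk4 upstream: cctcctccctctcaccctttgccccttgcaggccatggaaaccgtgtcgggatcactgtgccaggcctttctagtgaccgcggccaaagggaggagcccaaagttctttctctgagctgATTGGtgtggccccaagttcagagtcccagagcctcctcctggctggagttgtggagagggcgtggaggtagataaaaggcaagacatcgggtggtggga
CCAAT on either strand was found in 37.4% of 32851 promoter windows of 300 bases, so its presence is common. The window of Pdk4 held no AGGTCA, the nuclear receptor half-site, on either strand, and no GGGCGG.

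The mammalian genome encodes other kinases of the same family, and a ratio within a library does not depend on the library scale. Pdk4 made up 52.4%, 56.0% and 53.6% of the summed FPKM of Pdk1, Pdk2, Pdk3 and Pdk4 in wild type and 36.8%, 39.6% and 38.7% in the labelled knockouts (54.0 ± 1.85 against 38.4 ± 1.39, SD, n = 3). Pdk2, which is widely expressed, took 18.3%, 19.5% and 21.0% in wild type and 35.5%, 32.1% and 30.9% in the labelled knockouts. The groups did not overlap for either share, and an exact two-sided permutation test of 3 libraries against 3 gave p = 0.1, the smallest it allows. These are shares of 1 total, so a lower Pdk4 by itself raises the others. The Pdk1 share was also higher in the labelled knockouts without overlap, at 7.07 ± 0.219% against 5.81 ± 0.589% in wild type. Pdk2 alone was higher in the labelled knockouts by 0.27 on the log2 scale (17.52 ± 0.356 CPM against 21.11 ± 1.80 CPM, edgeR adjusted p = 0.0425), a call that was lost in 7 of 19 alternative analyses, among them the omission of each of the 6 libraries (edgeR adjusted p from 0.0531 to 0.169). Pdk3 and Pdk1 had log2 fold changes of -0.42 (edgeR adjusted p = 0.0591) and -0.19 (edgeR adjusted p = 0.194). Of the 11 genes listed for the pyruvate dehydrogenase complex, its other kinases and its phosphatases, 1 was called higher and none lower on the TMM scale (median 0.07), and Pdha1, the catalytic subunit that PDK4 phosphorylates, had a log2 fold change of 0.10 (107.1 ± 3.16 CPM against 115.0 ± 2.93 CPM, edgeR adjusted p = 0.0803). On library totals 9 of those 11 were called higher and none lower, when 46.8% of all genes tested were called higher and 3.81% lower.

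**Figure D2:**
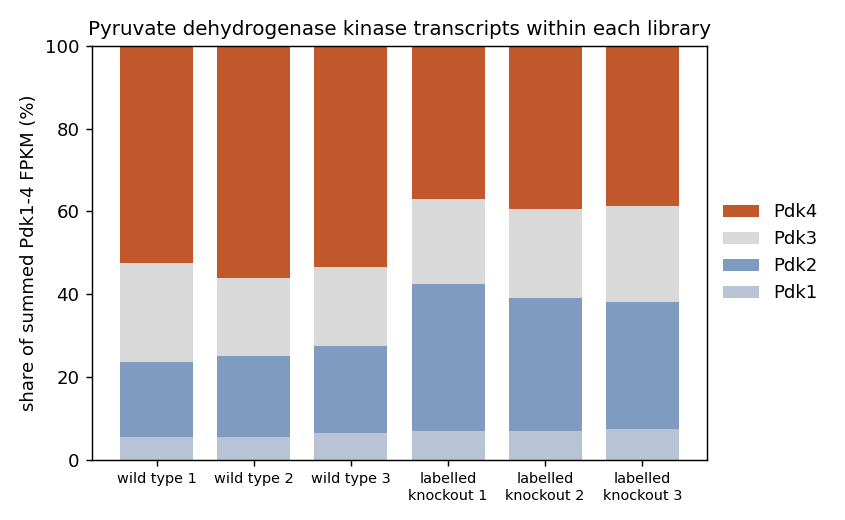
Share of each pyruvate dehydrogenase kinase in the summed FPKM of Pdk1, Pdk2, Pdk3 and Pdk4, in percent, for each of the 6 libraries. The Pdk4 segment is above 52% in each wild type library and below 40% in each labelled knockout library, while the Pdk2 segment is larger in the labelled knockouts.

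Among the carnitine palmitoyltransferases, Cpt1a encodes the form found in most tissues and the step at which malonyl-CoA holds back entry. It lies on the plus strand of chromosome 19 from 3322334 to 3385733. Its level was 79.50, 74.55 and 74.01 CPM in wild type and 65.43, 72.10 and 72.36 CPM in the labelled knockouts. The groups did not overlap, which was so for 41.1% of genes tested, and the log2 fold change of -0.12 (SE 0.05, 95% interval -0.24 to -0.00) was not called (edgeR adjusted p = 0.134). On FPKM the order turned round, with 7.635, 7.150 and 7.120 in wild type and 8.343, 9.183 and 9.246 in the labelled knockouts, and on library totals the log2 fold change was 0.29 (edgeR adjusted p = 0.000889).

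Cpt2, the inner membrane enzyme, lies on the minus strand of chromosome 4 from 107903981 to 107923610 and showed the same turn between scales as Cpt1a. It stood at 19.54, 20.87 and 21.50 CPM in wild type and 17.59, 18.53 and 18.15 CPM in the labelled knockouts, again without overlap. The log2 fold change was -0.19 (SE 0.08, 95% interval -0.36 to -0.02, edgeR adjusted p = 0.107) and turned to 0.22 on library totals (edgeR adjusted p = 0.0385). When only genes with a mean FPKM of at least 1 were tested, Cpt1a and Cpt2 were called lower, at -0.15 and -0.22 (edgeR adjusted p = 0.0477, and 0.05 after rounding). Within libraries, Cpt1a over Cpt2 on FPKM was 1.27, 1.12 and 1.08 in wild type and 1.16, 1.22 and 1.25 in the labelled knockouts, so the groups overlapped.

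Cpt1b, the muscle form of CPT1, could not be measured apart from its neighbours. It lies on the minus strand of chromosome 15 from 89416405 to 89425863. Its counts were 424, 29 and 131 in wild type and 39, 175 and 20 in the labelled knockouts, about 5 to 106 read pairs, with a coefficient of variation of 111% and 105%. The log2 fold change of -1.90 (SE 0.89, 95% interval -3.86 to 0.07) was the largest of the 10 and was not called (edgeR adjusted p = 0.156). Without wild type replicate 1 it was -0.48 and without labelled knockout replicate 2 it was -3.22.

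The gene model Gm44502, on the same strand, runs from 89416405 to 89429696 and shares 81.4% of the exon bases of Cpt1b. Gm44502 had 0, 628 and 646 counts in wild type and 648, 78 and 774 in the labelled knockouts, and it was lowest, at 0 and 78, in the 2 libraries where Cpt1b was highest. Cpt1b took 100%, 4.41% and 16.9% of the counts of the pair in wild type and 5.68%, 69.2% and 2.52% in the labelled knockouts. Chkb, a choline kinase gene upstream of Cpt1b on the same strand, had 1232, 872 and 1127 counts in wild type and 1647, 2537 and 1726 in the labelled knockouts. Summed over Cpt1b, Gm44502 and Chkb, the locus held 30.0, 26.9 and 29.6 CPM in wild type and 29.0, 32.0 and 30.3 CPM in the labelled knockouts. The spread within a group thus shrank once the gene models were joined. Chkb was the largest part of the joined sum in each library. The log2 fold change of the joined sum was 0.08 (SE 0.07, edgeR adjusted p = 0.484), and that of Cpt1b with Gm44502 alone was -0.58 (SE 0.35, edgeR adjusted p = 0.278).

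**Figure D3:**
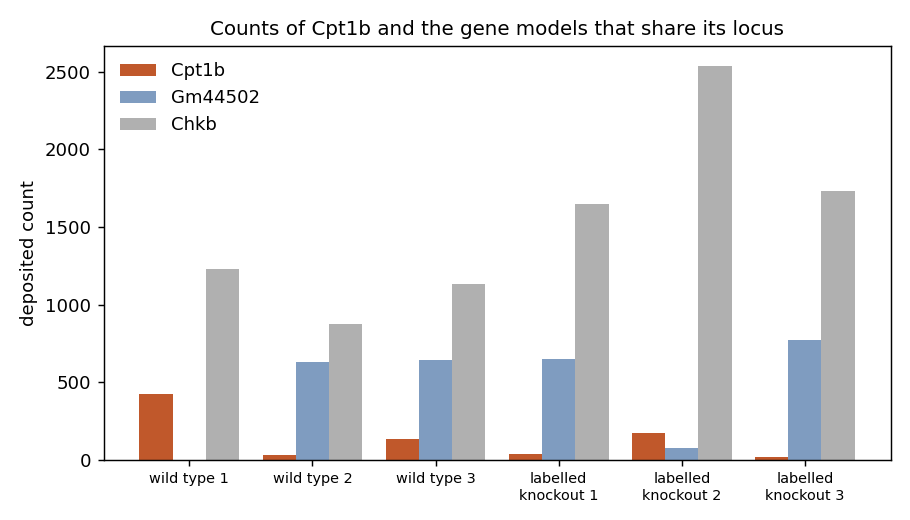
Deposited counts of Cpt1b, of Gm44502, a gene model that shares most of its exon bases, and of Chkb in each of the 6 libraries. Cpt1b is highest, at 424, in wild type replicate 1, where Gm44502 is at 0, and in labelled knockout replicate 2 it is at 175 with Gm44502 at 78.

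The acyl-CoA dehydrogenases, which open each round of the spiral for very long, long and medium chains, showed no difference on the TMM scale. Acadvl (minus strand of chromosome 11, 70010183 to 70015411) stood at 74.53, 72.47 and 77.14 CPM in wild type and 78.61, 81.04 and 76.25 CPM in the labelled knockouts. Its log2 fold change was 0.07 (SE 0.04, 95% interval -0.03 to 0.17, edgeR adjusted p = 0.278). Acadl (minus strand of chromosome 1, 66830839 to 66863277) stood at 49.60, 50.65 and 46.74 CPM in wild type and 49.74, 50.21 and 48.11 CPM in the labelled knockouts, a log2 fold change of 0.01 with a 95% interval of -0.11 to 0.13. Acadm (minus strand of chromosome 3, 153922357 to 153944632) stood at 60.53, 57.93 and 56.93 CPM in wild type and 58.72, 55.27 and 62.43 CPM in the labelled knockouts, a log2 fold change of 0.01 with a 95% interval of -0.12 to 0.13.

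For all 3 dehydrogenases the groups overlapped on CPM and the intervals left room for changes of at most 0.17 on the log2 scale. On library totals they were called higher, by 0.48, 0.42 and 0.42 for Acadvl, Acadl and Acadm, close to the shift of the median gene. Their shares of the summed FPKM of the 3 genes overlapped too, with Acadvl at 40.8%, 40.2% and 43.1% in wild type and 42.4%, 43.5% and 41.5% in the labelled knockouts. On the other strand, exons of Dvl2, which encodes a Wnt signalling protein, cover 42.9% of the exon bases of Acadvl, and whether the counting used strand is not given in the sources at hand. Dvl2 rose by 0.41 on the log2 scale (11.87 ± 1.57 CPM against 15.79 ± 2.08 CPM, edgeR adjusted p = 0.0421), and its part in the Acadvl value was not tested.

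AGGTCA, the half-site that PPAR and other nuclear receptors bind, was found in the promoter windows of 3 of the 9 genes with an entry, Acadvl, Cpt1a and Acadm, against 16.3% of all windows of 300 bases. The 30 bases around each match are shown, with the half-site in capitals, read as TGACCT where it lies on the other strand. They come from chr11:70015498-70015527 (minus strand), chr19:3323195-3323224 (plus strand) and chr3:153944864-153944893 (minus strand), and none of them overlaps a GENCODE exon. Promoter windows are set on RefSeq start sites, which differ from the ends of the GENCODE gene spans given here. The RefSeq start of Cpt1a is at 3323301, and the windows of Cpt1a and Ppara lie inside the GENCODE spans of those genes.
Acadvl: atggatcaccctAGGTCAggtagaatacag
Cpt1a: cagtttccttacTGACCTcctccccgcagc
Acadm: gTGACCTtcgggctccggtgacactgggca
The direct repeat of AGGTCA with 1 base between the copies, the layout of a PPAR and RXR site, was in 0.04% of all windows and in none of the 9, and TCAAGGTCA, a longer word that holds AGGTCA, was in 0.423% of all windows and in none of the 9. A match gives letters only, and sites further away were not searched.

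Hadha and Hadhb encode the alpha and beta subunits of the trifunctional protein, which hydrates, oxidises and cleaves long-chain intermediates. They are neighbours on chromosome 5, read outward from a shared gap of 85 bases. Hadha runs on the minus strand from 30118304 to 30155162 and Hadhb on the plus strand from 30155248 to 30184593. The gap, chr5:30155163-30155247 on the plus strand, is printed with its 2 GC boxes (GGGCGG) in capitals, since the GENCODE spans of both genes begin at its edges. The RefSeq start sites lie inside those spans, at 30154980 for Hadha and 30155253 for Hadhb.
between Hadha and Hadhb: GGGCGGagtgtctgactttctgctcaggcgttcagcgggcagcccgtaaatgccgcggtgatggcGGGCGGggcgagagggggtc
GGGCGG on either strand was in 35.7% of all promoter windows and in those of 6 of the 9 genes, and 69.4% of the bases of the gap are G or C.

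Hadha stood at 95.34, 90.11 and 92.98 CPM in wild type and 94.63, 86.00 and 99.42 CPM in the labelled knockouts. Hadhb stood at 43.66, 37.41 and 43.95 CPM in wild type and 44.44, 41.20 and 37.84 CPM in the labelled knockouts. The groups overlapped for both, with log2 fold changes of 0.01 (95% interval -0.11 to 0.13) for Hadha and -0.02 (95% interval -0.19 to 0.16) for Hadhb. Both were called higher on library totals, by 0.42 and 0.39. Counts of Hadha over Hadhb were 2.18, 2.41 and 2.12 in wild type and 2.13, 2.09 and 2.63 in the labelled knockouts, so the balance of the subunits' transcripts also overlapped.

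The level of Hadhb is uncertain. A pseudogene, Hadhb-ps in the table, matches 69.7% of the longest coding transcript of Hadhb at an identity of at least 97% over 100 bases, and it was listed with 1125, 1422 and 1309 counts in wild type and 1417, 1577 and 1634 in the labelled knockouts. That was 0.467, 0.669 and 0.462 times the count of Hadhb in wild type and 0.397, 0.439 and 0.519 times in the labelled knockouts. The sources used here do not say how the authors' counting divided reads that match both. With their counts summed, wild type held 64.1, 62.4 and 64.3 CPM and the labelled knockouts 62.1, 59.3 and 57.5 CPM, which did not overlap. The log2 fold change of the sum was -0.09 (SE 0.05, 95% interval -0.20 to 0.01, edgeR adjusted p = 0.194).

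Ppara was scarce. It lies on the plus strand of chromosome 15 from 85734983 to 85802819 and had 40, 41 and 67 counts in wild type and 63, 115 and 73 in the labelled knockouts, about 10 to 29 read pairs. The groups overlapped on CPM (0.725, 0.721 and 1.04 against 0.784, 1.32 and 0.877). The log2 fold change of 0.26 had a 95% interval of -0.60 to 1.11 (edgeR adjusted p = 0.69), so changes within that interval could not be told from none. Without labelled knockout replicate 2 the value was 0.00.

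**Figure D4:**
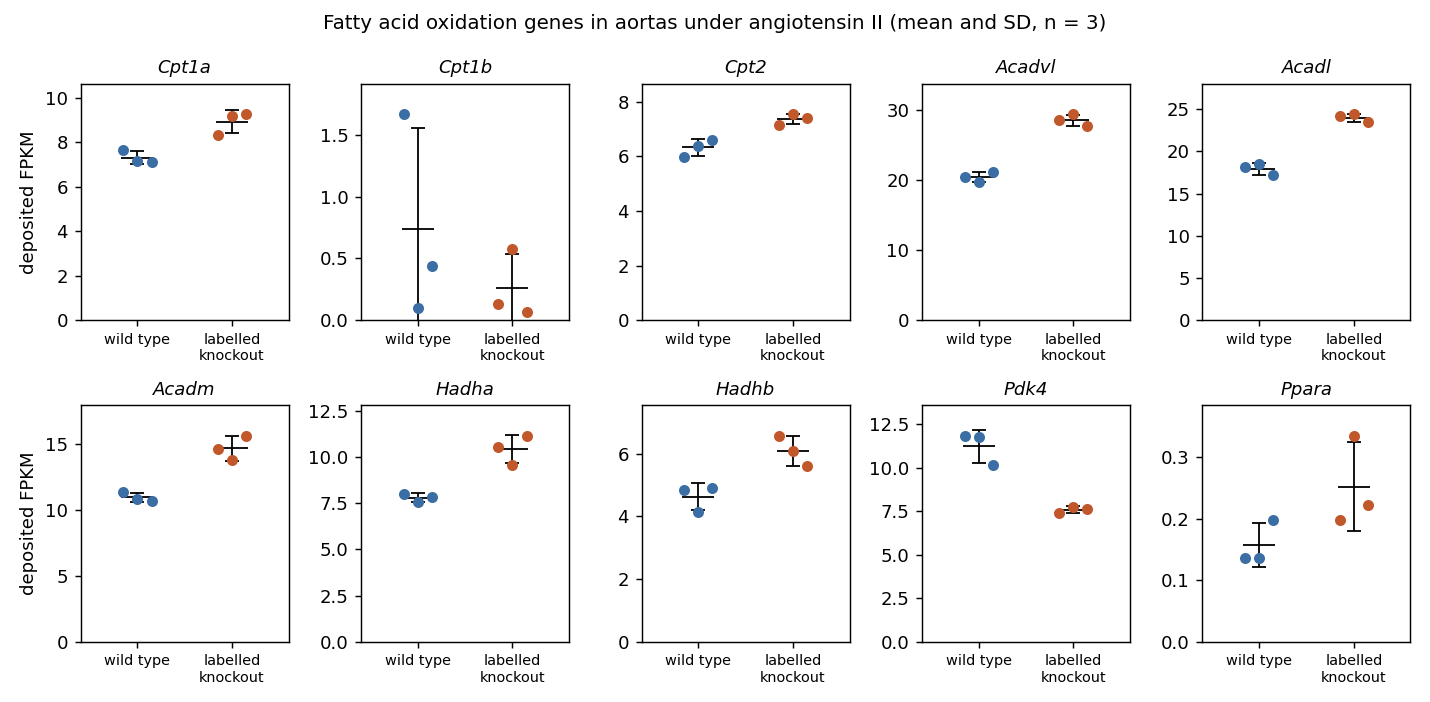
Deposited FPKM of each of the 10 genes in the 6 libraries, with the mean and SD of 3 libraries as bars (cut off at 0 for Cpt1b). On this scale, which carries the shift of the median gene, 8 genes are higher in the labelled knockouts without overlap, Pdk4 is lower without overlap, and Cpt1b overlaps.

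On the deposited FPKM the groups did not overlap for 9 of the 10 genes, 8 higher and Pdk4 lower, when the groups did not overlap for 59.4% of all genes tested, 53.2% higher and 6.15% lower. The order of the genes by FPKM in wild type was Acadvl, Acadl, Pdk4, Acadm, Hadha, Cpt1a, Cpt2, Hadhb, Cpt1b and Ppara, from 20.37, 19.77 and 21.12 for Acadvl to 0.1363, 0.1352 and 0.1976 for Ppara. Neighbours in that order overlapped over the wild type libraries for 3 pairs, which were Pdk4 with Acadm, Hadha with Cpt1a, and Cpt1b with Ppara. In the labelled knockouts Pdk4, at 7.394, 7.757 and 7.629 FPKM, stood below Cpt1a and overlapped with Cpt2 at 7.165, 7.542 and 7.411 FPKM. The order depends on the length used. Lengths worked back from count, FPKM and library total were about 1.18 times the union of all GENCODE exons, nearly the same factor for each gene but Cpt1b. Whether that factor belongs to the length or to the authors' library total was not tested. The union counts retained introns and has 8730 bases for Hadha and 6595 for Hadhb, while their longest coding transcripts have 4017 and 2048. Per kilobase of the longest coding transcript, an alternative chosen after seeing the data, Hadhb moved from the eighth to the fifth place, at 20.3 CPM per kilobase in wild type, close to Hadha at 23.1. By the same measure Pdk4 fell from 15.4 to 7.85 CPM per kilobase between the groups, and Acadvl led both groups at 34.5 and 36.3.

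The wider pathway was read from 8 lists with 89 genes, of which 88 were in the table and all of those were tested. On the TMM scale 15 were called higher and 5 lower, with a median log2 fold change of 0.06, beside 13.2% higher, 11.5% lower and a median of -0.00 over all genes. On library totals 67 were called higher and 1 lower, beside 46.8% higher, 3.81% lower and a median of 0.41 over all genes. The medians of the lists ran from -0.43 for other PPAR targets to 0.22 for uptake and activation. The lists were written with earlier results of these libraries known.

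Of 12 genes for uptake and activation, 3 rose and none fell on the TMM scale (median 0.22, and 0.63 on library totals). Cd36, the fatty acid translocase, stood at 178.9, 172.4 and 168.8 CPM in wild type and 238.4, 247.5 and 248.3 CPM in the labelled knockouts (log2 fold change 0.50, SE 0.03, edgeR adjusted p = 7.65e-07). Fabp4, a fatty acid binding protein of adipocytes, macrophages and capillary endothelium, rose by 0.30 (483.1 ± 16.9 CPM against 596.6 ± 2.28 CPM, edgeR adjusted p = 5.15e-06). Slc27a1, a fatty acid transporter with acyl-CoA synthetase activity, rose by 0.51 (16.96 ± 2.27 CPM against 24.20 ± 1.32 CPM, edgeR adjusted p = 0.00354). These 3 genes, named for the smallest p of the list, had no overlap between the groups on CPM, which was so for 41.1% of all genes tested. They kept their call in all 19 alternative analyses. The acyl-CoA synthetase gene Acsl1, which feeds CPT1, had a log2 fold change of -0.04 (76.31 ± 2.43 CPM against 74.47 ± 1.67 CPM).

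None of the 5 other genes of the carnitine shuttle was called on the TMM scale (median 0.03). On library totals 4 were called higher, as were 46.8% of all genes tested. Slc22a5, the carnitine importer, had a log2 fold change of 0.34 (edgeR adjusted p = 0.054). Slc25a20, the carrier that exchanges carnitine for acylcarnitine across the inner membrane, had -0.31 (20.23 ± 3.18 CPM against 16.32 ± 0.667 CPM, edgeR adjusted p = 0.0659), which turned to 0.10 on library totals. Cpt1c, the brain form of CPT1, had 0.22 (edgeR adjusted p = 0.10).

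Of 15 other genes of mitochondrial beta-oxidation, 2 rose, 1 fell and 12 were not called on the TMM scale, with a median of 0.01. Acadsb, the dehydrogenase for short branched chains, rose by 0.24 (73.73 ± 3.58 CPM against 87.12 ± 3.96 CPM, edgeR adjusted p = 0.00527). Acad10, an acyl-CoA dehydrogenase of low abundance here, rose by 0.80 (2.353 ± 0.366 CPM against 4.101 ± 0.554 CPM, edgeR adjusted p = 0.0176), a call that was lost without wild type replicate 2 or 3 or labelled knockout replicate 1 or 3 (edgeR adjusted p from 0.0542 to 0.0758). Decr1, the reductase needed for polyunsaturated chains, fell on the TMM scale, from 40.46, 38.79 and 39.39 CPM to 36.11, 31.52 and 33.42 CPM (a log2 fold change of -0.23 with an edgeR adjusted p of 0.0239), and was called higher on library totals at 0.18 (edgeR adjusted p = 0.0417). The lower call of Decr1 was also lost in 6 other alternatives, with edgeR adjusted p from 0.0575 to 0.112 without wild type replicate 1 or 3 or labelled knockout replicate 2 or 3. On library totals 14 of the 15 were called higher, beside 46.8% of all genes tested. Peroxisomal oxidation, which shortens very long chains before they reach the mitochondrion, had 3 of 12 genes higher and none lower (median 0.21). These were Acaa1a, a thiolase, by 0.21, Abcd3, an importer of the peroxisomal membrane, by 0.29, and Acox3, an acyl-CoA oxidase, by 0.28 (edgeR adjusted p = 0.00521, 0.00784 and 0.015). The Acox3 call was lost in 3 alternatives, including those without wild type replicate 3 or labelled knockout replicate 1 (edgeR adjusted p = 0.052 and 0.0668).

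Malonyl-CoA, made by acetyl-CoA carboxylase, inhibits CPT1, and AMP-activated kinase restrains that carboxylase. Of 8 genes listed for this control, 2 rose and none fell on the TMM scale (median 0.04). On library totals 8 were called higher, beside 46.8% of all genes tested. Acaca, the cytosolic carboxylase, rose by 0.42 (27.85 ± 1.01 CPM against 37.31 ± 3.80 CPM, edgeR adjusted p = 0.00275). Acacb, the form at the outer mitochondrial membrane, had 0.33 (12.87 ± 1.25 CPM against 16.13 ± 1.82 CPM, edgeR adjusted p = 0.0647). Prkab2, a regulatory subunit of AMP-activated kinase, rose by 0.40 (57.45 ± 1.43 CPM against 75.92 ± 5.47 CPM, edgeR adjusted p = 0.000351).

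Pdk4 is itself a known target of PPAR receptors, and other targets were listed beside it. Of the 12 tested, 4 fell, 1 rose and 7 were not called on the TMM scale, with a median of -0.43 beside -0.00 for all genes. On library totals the median was -0.02 beside 0.41, with 1 called lower and 1 higher, beside 3.81% lower and 46.8% higher of all genes tested. Ucp2, an inner membrane carrier, stood at 72.10, 70.55 and 77.56 CPM in wild type and 40.03, 42.91 and 42.97 CPM in the labelled knockouts (log2 fold change -0.81, SE 0.06, edgeR adjusted p = 1.26e-06), and it was still called on library totals at -0.40 (edgeR adjusted p = 0.000136). Angptl4, a secreted inhibitor of lipoprotein lipase, stood at 33.27, 32.32 and 34.62 CPM in wild type and 21.82, 22.50 and 24.46 CPM in the labelled knockouts (log2 fold change -0.54, SE 0.07, edgeR adjusted p = 0.000187). Plin2, which coats lipid droplets, stood at 45.89, 47.75 and 46.02 CPM in wild type and 34.34, 36.24 and 33.03 CPM in the labelled knockouts (log2 fold change -0.43, SE 0.06, edgeR adjusted p = 0.000245). For each of these 3 genes, named for the smallest p of the list, the groups were apart on CPM. That was so for 41.1% of all genes tested. On FPKM the groups overlapped for Angptl4 and Plin2. On library totals Angptl4 and Plin2 were not called, at -0.13 and -0.02 (edgeR adjusted p = 0.149 and 0.805).

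Vnn1, a pantetheinase named after its values were seen, was the other gene of that list called lower and fell by 0.82 on the log2 scale (9.483 ± 2.09 CPM against 5.355 ± 1.10 CPM, edgeR adjusted p = 0.0103). On library totals Vnn1 was not called, at -0.41 (edgeR adjusted p = 0.106), and on FPKM its groups overlapped. Among 13 partners and coregulators of the receptors, 3 rose and none fell on the TMM scale (median 0.14). They were Pparg, the adipocyte receptor, by 0.47, Rxrb, a heterodimer partner, by 0.21, and Ncor1, a corepressor, by 0.14 (edgeR adjusted p = 0.0469, 0.046 and 0.0468), and these calls were lost in 6, 8 and 11 of 19 alternative analyses. Leaving out a single library ended the Pparg call for 4 of the 6 libraries, that of Rxrb for 5 and that of Ncor1 for each of the 6. Ppargc1a, a coactivator of oxidative genes, was scarce at 2.370 ± 1.05 CPM against 1.899 ± 0.485 CPM and was not called (log2 fold change -0.32, edgeR adjusted p = 0.578).

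**Figure D5:**
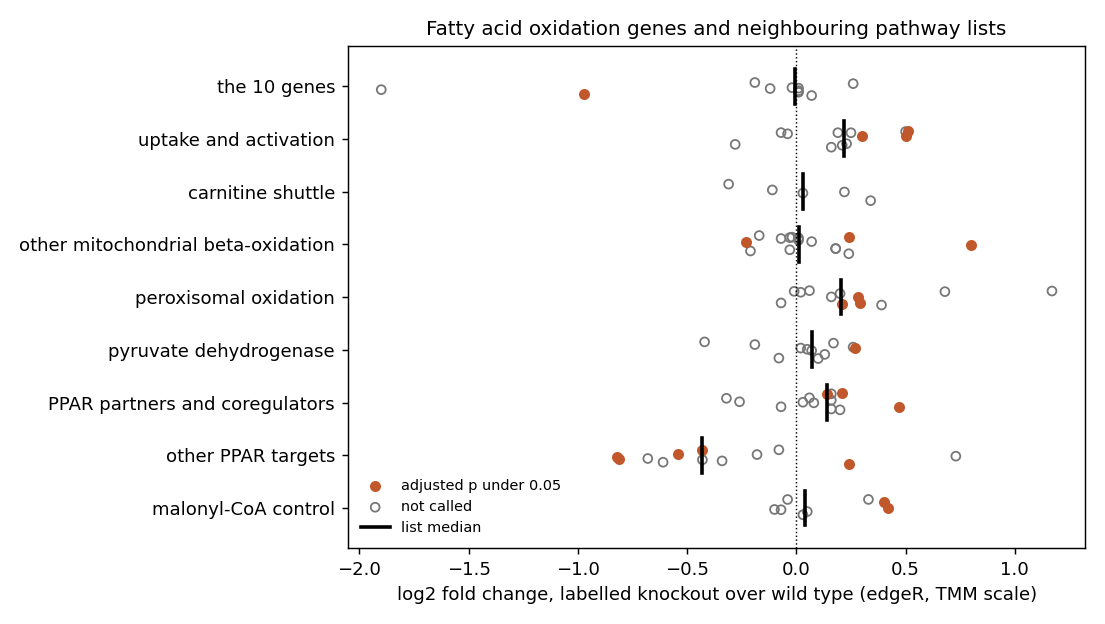
Log2 fold change on the TMM scale, labelled knockout over wild type, of the 10 genes and of each pathway list, with a point per gene, filled where the edgeR adjusted p is under 0.05, and a bar at the median of the list. The list of other PPAR targets has its median at -0.43 and that of uptake and activation at 0.22, while the 10 genes, the carnitine shuttle and other mitochondrial beta-oxidation have theirs near 0.

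Markers of other cells that burn or store fat moved between the groups as well. Marker calls are on the TMM scale unless stated, where 13.2% of all genes tested were called higher and 11.5% lower. Of 11 adipocyte markers 6 were called higher and 1 lower, and their summed level was 311 to 325 CPM in wild type and 424 to 435 CPM in the labelled knockouts, with Adipoq at 17.48 ± 0.406 and 33.24 ± 2.27 CPM, Plin1 at 5.060 ± 0.804 and 11.10 ± 1.35 CPM, and Lep at 0.2729 ± 0.117 and 0.4904 ± 0.146 CPM. The labels' protocol speaks of an adipose type where the tissue field says aorta. Of 7 brown adipocyte markers tested 2 were called higher and none lower (90.1 to 96.5 CPM against 182 to 194 CPM in sum). Most of that sum was Dio2, a deiodinase, at 82.37 ± 2.21 and 171.7 ± 4.64 CPM. The defining marker Ucp1 had a log2 fold change of -0.24 and was not called, Cidea had 0.62 (edgeR adjusted p = 0.0463), and Elovl3 was at 0 counts in 5 of 6 libraries. Endothelial markers rose in 6 of 7 and fell in 1 (404 to 411 CPM against 685 to 694 CPM in sum), and 4 of 6 macrophage markers fell and 1 rose (191 to 199 CPM against 158 to 161 CPM), Cd68 by 1.34 on the log2 scale. Cardiac markers, from a tissue rich in these enzymes, had 2 of 8 higher and 1 lower and summed to 60.6 to 70.7 CPM in wild type and 65.1 to 68.4 CPM in the labelled knockouts, where Ryr2 was lower (34.77 to 26.93 CPM) and the defining marker Tnnt2 higher (16.76 to 25.57 CPM, edgeR adjusted p = 0.000148). The defining markers Tnni3, at 0.9858 and 2.002 CPM, and Myh6, at 2.489 and 3.497 CPM, were not called. Skeletal markers had 2 of 8 lower and none higher, with Myh4 at 0 counts in 2 libraries, and summed to 10.1 to 11.4 CPM in wild type and 5.02 to 6.35 CPM in the labelled knockouts. Of 5 fibroblast markers 1 rose and 4 fell (1680 to 1700 CPM against 1480 to 1510 CPM in sum), and of 5 hepatocyte markers 1 rose (27.3 to 29.0 CPM against 42.3 to 46.5 CPM in sum). Of 3 kidney markers tested 1 fell, and the 7 listed summed to 16.7 to 17.6 CPM in wild type and 0.528 to 1.42 CPM in the labelled knockouts, nearly all of the wild type sum being Aqp2, with Umod at 0 counts in 5 of 6 libraries and Slc34a1 in 3. On library totals fibroblast markers had 4 called higher and 0 lower, macrophage markers 2 and 2, adipocyte markers 7 and 0, and endothelial markers 6 and 0. Brown adipocyte markers had 2 and 0, cardiac 4 and 0, skeletal 1 and 2, hepatocyte 4 and 0, and kidney 0 and 1. Of all genes tested 46.8% were higher and 3.81% lower on that scale. The part of these cells in the levels of Pdk4, Cd36, Fabp4 or the PPAR targets was not tested.

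The genes with the most similar course over the 6 libraries were sought for Cpt1b and Ppara among 4829 genes with a mean FPKM of at least 5, by the root mean square distance of centred log2 CPM. For Cpt1b the nearest were Gm4459, Gm11808 and Gm16418 at distances of 1.2, 1.26 and 1.28, so no gene lay close to its irregular course. For Ppara the nearest were Gm48529, Gm10157 and Ddx18 at 0.151, 0.17 and 0.176. With about 10 to 29 read pairs per library the course of Ppara is itself uncertain, and shared regulation with these genes was not tested.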

How the data were processed

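RNA of the aorta was profiled in 6 libraries, per the labels' protocols by Trizol extraction, selection of polyadenylated RNA and paired-end Illumina sequencing. Bowtie 0.12.2, HISAT2 2.0 and mm8 appear in the submitters' processing notes without a stated use, while 92.1% of the 41064 deposited gene coordinates equal those of GENCODE release M21 on GRCm38. Per the file headers, the authors deposited counts and FPKM for each library. The deposited counts are whole numbers with a peak at 4, where 1091 to 1137 genes per library stood. At 3 counts there were 792 to 867 genes and at 5 counts 472 to 519. Only 26.2% to 27.7% of counts from 1 to 20 were multiples of 4. The deposited values were treated as estimated counts made by the authors, with about 4 to a read pair, a weak reading that rests on the values alone. The sources used here do not give the counter, the annotation or the use of strand.

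Genes passed filterByExpr and were tested with edgeR 4.0.16 (R 4.3.3) on TMM-scaled counts, all 6 libraries in 1 fit with group as the only term, and p-values were adjusted over 20132 genes at a threshold of 0.05. CPM are counts per 1000000 of the TMM-scaled library size, and errors are SD over n = 3 libraries. A binomial or counting interval was not used. The members and lists were chosen with earlier results of these data known. Genes named by rule are the 10 members, Josd2, up to 3 genes of each list with the smallest p, overlapping genes, the nearest genes in pattern and a part of the defining markers. The other defining markers enter only through the counts and sums of their lists. Some further genes, among them Acsl1, Ppargc1a, Vnn1, Dio2 and Ryr2, were named outside that rule. The values of 1 listed gene are not reported here. Similar transcripts were sought with BLAST+ 2.17.0, and promoter sequences are from RefSeq, with an entry for 9 of the 10 genes. Alternatives were library totals, median-of-ratios factors, library totals with mitochondrial genes left out, DESeq2 1.42.0, other filters, counts divided by 4, robust edgeR, limma 3.58.1 on log2 FPKM with pseudocounts of 1 and 0.1, the replicate number as a block and each library left out. The code was tested on simulated data.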

Additional observations from a re-analysis of the deposited data

How the results depend on the processing

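Pdk4 was lower and called in all 19 alternatives, with log2 fold changes from -1.04 to -0.51. The scale decided most other calls. With library totals, library totals after mitochondrial genes were left out, limma on log2(FPKM + 1) and limma on log2(FPKM + 0.1), the genes called higher numbered 9425, 4911, 9447 and 9330 against 2658 in the report, and those called lower 768, 1361, 867 and 866 against 2323. Of the 10 genes 7, 4, 7 and 7 were then higher, and of the pathway genes 67, 35, 67 and 67 higher, and 1 lower with library totals and with limma at either pseudocount. DESeq2 called 24 pathway genes higher and 8 lower. A mean FPKM of at least 1 gave 3 of the 10 genes and 9 pathway genes lower. The share of calls that were higher was 53.4% in the report, 92.5% with library totals, 78.3% with library totals after mitochondrial genes were left out and 58.7% with library totals when their nuclear copies were left out too, an alternative chosen after seeing the data, as were the coding transcript lengths and the summed gene models. In that order the shift of the median gene was 0.41, 0.16 and 0.03.

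Values of some genes changed sign, and of these Decr1 was called in the report. Each of the settings without mitochondrial genes also replaced TMM by library totals. Cpt1a was 0.29 with library totals, 0.04 with mitochondrial genes left out, and 0.26 and 0.29 with limma at pseudocounts of 1 and 0.1. Cpt2 was 0.22 with library totals and 0.19 and 0.22 with limma, Slc25a20 0.10, 0.08 and 0.11, Decr1 0.18, 0.16 and 0.17, and Pdk3 was 0.01 with limma at both. With a mean FPKM of at least 1, Acadl, Acadm and Hadha were -0.01, -0.02 and -0.02, and with counts divided by 4 they were -0.01 each. Leaving out each library in turn gave -0.02 to 0.04 for Acadl, -0.03 to 0.05 for Acadm, -0.04 to 0.07 for Hadha and -0.09 to 0.04 for Hadhb. Hadhb was 0.39 with library totals, 0.14 with mitochondrial genes left out, 0.01 with their copies out too, 0.01 without a filter, and 0.33 and 0.39 with limma. Cpt1b summed with Gm44502 and Chkb was 0.08, but Chkb made up most of that sum, 18.39 of 28.8 CPM in wild type and 23.43 of 30.4 CPM in the labelled knockouts. Summed with Gm44502 alone, Cpt1b kept its sign at -0.58. The cause of these changes was not tested. Leaving out each library gave 1966 to 2429 genes higher and 1790 to 2044 lower, 10 to 13 pathway genes higher and 4 to 5 lower, and of the 10 genes 0 higher and 1 lower each time.

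With the replicate number as a block, 2464 genes were called higher and 2096 lower, 13 pathway genes higher and 5 lower, and Pdk4 stayed the only call among the 10 genes, at -0.97. Deviations of same-numbered libraries had correlations of -0.00082, -0.0288 and -0.0181, against -0.0125 to 0.0308 for differently numbered ones. These values show no sign of pairing by number, but with groups of 3 libraries they cannot exclude it. Counts were lowest for Ppara and Cpt1b, at about 10 to 29 and 5 to 106 read pairs.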
